A study of Homo sapiens with 9 samples.

Results

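The genes described here are 10 genes of cholesterol synthesis: HMGCS1, ACAT2, MVK, MVD, IDI1, SQLE, LSS, SC5D and DHCR7, which encode enzymes, and INSIG1, which encodes a regulator of the pathway and is not an enzyme. Their members were all probe sets to which the platform annotation gave exactly 1 gene symbol equal to such a name, giving 26 of the 54675 probe sets and 10 of the 19775 single-symbol genes on the array. All 10 genes were tested, and 24 of the 26 probe sets were bright enough to enter the test. RNA came from U87 cells, an established human glioma line, at 100000 cells per sample. A miRNA duplex was delivered at 50 nM in a lipid reagent, and RNA was isolated 24 h later. There were 3 groups of 3 biological replicates. A first group received miR-376a*A, another miR-376a*G and the last a control miRNA, so every group went through transfection. Each sample was hybridised to 1 Affymetrix human expression array, which reports an intensity (signal) in arbitrary units for each probe set. The groups model the addition of a miRNA duplex to 1 cell line at 1 dose and 1 time.

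Cholesterol is built from acetyl-CoA. Thiolase and HMG-CoA synthase start the route, HMG-CoA reductase makes mevalonate, and mevalonate is phosphorylated and decarboxylated to the isoprenoid units from which squalene and then the sterols are assembled. The genes of the route are activated together by the SREBP transcription factors, which reach the nucleus when sterols are low and SCAP escorts them out of the endoplasmic reticulum. INSIG1 holds SCAP back when sterols are high and is itself a target of SREBP. In the brain, where lipoproteins do not cross from the blood, glia make most of the cholesterol, and glioma cells also take it up.

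miR-376a* is now named miR-376a-5p. The name ends in A for the form without editing and in G for the edited form, since published studies of the miRNA describe A-to-I editing in it and inosine pairs like G. The mature sequence in RefSeq, which is that of the human genome and so unedited, is shown as the reference for the A form. It lies on the + strand at chr14:101040788-101040809 (GRCh38.p14). The capitals mark the seed, bases 2 to 8, through which a miRNA pairs with its targets. The labels do not give the edited position, and the sequence of the G form is not printed here.
hsa-miR-376a-5p: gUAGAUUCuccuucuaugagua

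Against the control, INSIG1 was lower with both forms, by 1.35-fold with miR-376a*A and by 1.31-fold with miR-376a*G. By the brightest probe set of each gene, the late-pathway enzyme genes DHCR7 and SC5D fell with miR-376a*A, and MVK and LSS fell with miR-376a*G. Between the forms MVK and LSS did not pass. The other tested probe sets of MVK fell with miR-376a*A and not with miR-376a*G, and the second of DHCR7 fell with both forms. The fall of SC5D passed in 1 of the 9 fits that left out 1 array. By the brightest probe sets, ACAT2, at the start of the pathway, was the 1 gene of the 10 that rose, with either form. By the same probe sets HMGCS1, MVD, IDI1 and SQLE did not pass the test in any comparison. A dimmer probe set of IDI1 passed as higher with both forms, at log2 differences of 0.46 and 0.57. Another passed as higher with miR-376a*A only, at 0.42. Differences were tested with limma on log2(signal + 16) over all 9 arrays, and a gene passed when its p, adjusted by Benjamini-Hochberg, was under 0.05 over the 20068 features tested. A log2 difference or a fold is on this scale, which understates the change of dim genes.

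With miR-376a*A, 4 of the 10 genes passed, 1 of them higher and 3 lower, while 20.8% of all features passed (10.8% higher and 10% lower). The median log2 difference of the 10 genes was -0.22, against 0.04 over all features. Of the 10 differences 9 were negative, as were 8564 of the 20068 over all features. With each array centred on its median, MVK and LSS passed as well (1 higher and 5 lower), and 1659 features were higher and 2353 lower, against 2164 and 2013 without centring. With miR-376a*G, 4 of the 10 passed, again 1 higher and 3 lower, beside 24.9% of all features (11.8% higher and 13.1% lower). Here the median of the 10 genes was -0.18, against -0.00381 over all features. Negative differences numbered 8 of the 10, and 10171 of the 20068 over all features. Between the forms, 2 of the 10 genes passed, both lower with miR-376a*A, beside 18.3% of all features (10.4% higher and 7.9% lower), and the medians were -0.03 and 0.03. The 2 comparisons with the control share the same 3 control arrays, so their values are given side by side and not as separate evidence. The mean deviation of the 10 genes from their average over the 9 arrays was 0.17, 0.09 and 0.14 (log2) on control replicates 1, 2 and 3. It was -0.13, -0.10 and -0.04 on the 3 miR-376a*A arrays, and -0.00482, -0.05 and -0.08 on the 3 miR-376a*G arrays. All 3 control arrays thus lay above the 6 others. The 10 genes were chosen with earlier results of these data known, so this order is no independent evidence of a direction. In RNA of whole cultures, fewer cells holding a transcript and less of it per cell cannot be told apart.

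**Figure D1:**
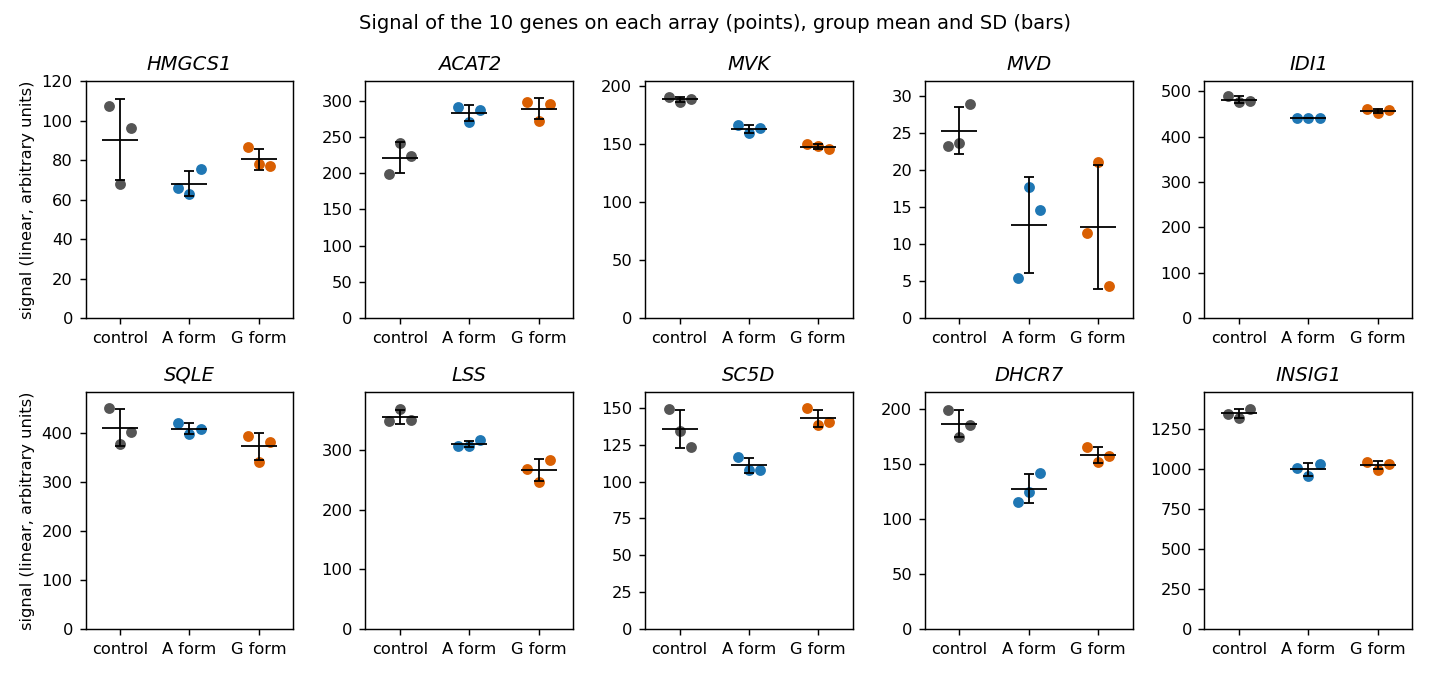
Signal (linear, arbitrary units) of the brightest probe set of each of the 10 genes on the control, miR-376a*A (A form) and miR-376a*G (G form) arrays. Points are the 3 arrays of a group, the horizontal line is their mean and the bar their SD. The 3 control arrays of INSIG1, from 1319 to 1375, lie above all 6 others, and the 3 control arrays of ACAT2 lie below them.

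INSIG1 encodes the endoplasmic reticulum protein that retains SCAP and targets HMG-CoA reductase for degradation. Its signal was 1341, 1319 and 1375 on control replicates 1, 2 and 3, 1004, 953 and 1027 with miR-376a*A and 1044, 993 and 1026 with miR-376a*G. Each miR-376a* array was below each control array, and the miR-376a*A and miR-376a*G arrays overlapped. The log2 difference from the control was -0.43 ± 0.0562 (SE, adjusted p = 0.000169) with miR-376a*A and -0.39 ± 0.0562 (SE, adjusted p = 0.000267) with miR-376a*G. Between the forms it was -0.04, with a 95% interval of -0.16 to 0.08 (adjusted p = 0.705). The other 2 probe sets of INSIG1 also passed as lower, at -0.61 and -0.55 with miR-376a*A and at -0.55 and -0.40 with miR-376a*G. Both differences kept their call without any 1 of the 9 arrays.

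ACAT2 encodes the cytosolic acetoacetyl-CoA thiolase that joins 2 acetyl-CoA molecules in the first step of the route. Its signal was 199, 241 and 224 on control replicates 1, 2 and 3, 291, 271 and 287 with miR-376a*A and 299, 272 and 296 with miR-376a*G. The highest control array was below the lowest miR-376a* array. The log2 difference from the control was 0.34 ± 0.0794 (SE, adjusted p = 0.00975) with miR-376a*A, a rise of 1.26-fold, and 0.36 ± 0.0794 (SE, adjusted p = 0.00497) with miR-376a*G, a rise of 1.29-fold. Between the forms it was -0.03 (95% interval -0.20 to 0.14). ACAT2 had 1 probe set, and both calls held without any 1 array. HMGCS1 encodes the cytosolic HMG-CoA synthase of the next step and is a textbook SREBP target. Its signal was 107, 67.8 and 96.2 on control replicates 1, 2 and 3, 65.8, 63 and 75.4 with miR-376a*A and 86.6, 78 and 77 with miR-376a*G. Control replicate 2 lay among the miR-376a*A arrays and below the miR-376a*G arrays, apart from the other 2 controls, and neither difference passed, at -0.32 (adjusted p = 0.0897) with miR-376a*A and -0.12 (adjusted p = 0.529) with miR-376a*G. Without control replicate 2 both passed, at -0.49 (adjusted p = 0.00393) and -0.29 (adjusted p = 0.0455). The second HMGCS1 probe set gave -0.30 and -0.09 and did not pass either.

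Mevalonate kinase, encoded by MVK, adds the first phosphate to mevalonate. The signal of MVK was 190.1, 186 and 188 on control replicates 1, 2 and 3, 166, 159 and 164 with miR-376a*A and 149.8, 148 and 145 with miR-376a*G. The 3 groups did not overlap, with the controls highest and miR-376a*G lowest. MVK fell with miR-376a*G by 1.25-fold, a log2 difference of -0.32 ± 0.0653 (SE, adjusted p = 0.00328), while -0.19 ± 0.0653 (SE, adjusted p = 0.0565) with miR-376a*A missed the threshold and passed in 5 of 21 alternative analyses, the omission of control replicate 1 among them (adjusted p = 0.0433). The difference between the forms was 0.13 (95% interval -0.01 to 0.27, adjusted p = 0.2). The probe sets of MVK disagreed on the form. On both of its other tested probe sets MVK passed as lower with miR-376a*A, at -0.30 (adjusted p = 0.0335) and -0.53 (adjusted p = 0.0164), and not with miR-376a*G, at -0.08 and -0.14. When the MVK probe sets were averaged, the gene had an adjusted p of 0.0902 with miR-376a*G and of 0.00562 with miR-376a*A. The remaining MVK probe set was too dim to be tested, with mean signals of 5 in the control, 10.7 and 4.96.

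MVD encodes the decarboxylase that turns mevalonate diphosphate into isopentenyl diphosphate. Its only probe set was dim, at 23.3, 23.7 and 29 on control replicates 1, 2 and 3, 5.4, 17.8 and 14.6 with miR-376a*A and 11.5, 21.2 and 4.39 with miR-376a*G. All 6 miR-376a* arrays were below the 3 controls, but they spread widely, and the differences of -0.55 ± 0.205 (SE, adjusted p = 0.0753) and -0.58 ± 0.205 (SE, adjusted p = 0.0551) did not pass. That with miR-376a*A passed without miR-376a*G replicate 2 or 3 (adjusted p = 0.0438 and 0.0439), and that with miR-376a*G when replicate 1 of miR-376a*A was omitted (adjusted p = 0.0364) or replicate 2 of miR-376a*G (adjusted p = 0.0139). With only the compared groups in the fit both passed (adjusted p = 0.0435 and 0.0467), and that with miR-376a*G passed as well with the replicate number as a block (adjusted p = 0.0454) and with an offset of 64 (-0.23, adjusted p = 0.0418). IDI1 encodes the isomerase that interconverts the isoprenoid units. Its brightest probe set had signals of 490.3, 476 and 479 on control replicates 1, 2 and 3, 440.3, 441 and 442 with miR-376a*A and 460.4, 451 and 458 with miR-376a*G. The groups did not overlap, but the differences were small, at -0.12 (adjusted p = 0.152) and -0.07 (adjusted p = 0.39), and did not pass. The 4 probe sets of IDI1 went different ways. The 2 bright ones lay below the control, the second at -0.09 and -0.06. Of the 2 dimmer ones, the brighter passed as higher with miR-376a*A (0.46, adjusted p = 0.00734) and with miR-376a*G (0.57, adjusted p = 0.00147), and the dimmest passed as higher with miR-376a*A (0.42, adjusted p = 0.0241) and not with miR-376a*G (0.26, adjusted p = 0.129). When its probe sets were averaged, IDI1 passed as higher with miR-376a*G (0.18, adjusted p = 0.0415). The annotation gives IDI1 alone for all 4, and which transcripts each detects was not analysed here.

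SQLE encodes squalene epoxidase, a rate-limiting enzyme of the sterol-specific part of the route. Its signal was 451, 377 and 403 on control replicates 1, 2 and 3, 421, 398 and 408 with miR-376a*A and 394, 341 and 381 with miR-376a*G. Both forms overlapped the controls, with log2 differences of -0.00 (95% interval -0.17 to 0.17) with miR-376a*A and -0.13 (95% interval -0.31 to 0.04) with miR-376a*G. The other 3 SQLE probe sets, at -0.06 to 0.12 and 0.07 to 0.19, did not pass. LSS encodes lanosterol synthase, which closes the sterol ring system. Its signal was 348, 369 and 349.7 on control replicates 1, 2 and 3, 306, 307 and 316 with miR-376a*A and 269, 247 and 283 with miR-376a*G. The 3 groups did not overlap, and the order was that of MVK, with the controls highest and miR-376a*G lowest. LSS fell with miR-376a*G by 1.32-fold, a log2 difference of -0.40 ± 0.069 (SE, adjusted p = 0.0011), and missed the threshold with miR-376a*A at -0.19 ± 0.069 (SE, adjusted p = 0.0709). The difference between the forms was 0.21 (adjusted p = 0.0544). Without control replicate 1 both of these passed (adjusted p = 0.0394 and 0.0195), and the latter also without control replicate 2 (adjusted p = 0.0437). The other 2 LSS probe sets were dim and did not pass, at 0.08 and -0.20 with miR-376a*G, and when all 3 were averaged the fall with miR-376a*G no longer passed (adjusted p = 0.0875). The calls of MVK and LSS with miR-376a*G held without any 1 array.

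SC5D and DHCR7 encode enzymes of the last steps. SC5D makes 7-dehydrocholesterol from lathosterol, and DHCR7 reduces it to cholesterol. The signal of SC5D was 149, 134 and 124 on control replicates 1, 2 and 3, 117, 108 and 108 with miR-376a*A and 149.6, 138 and 140.4 with miR-376a*G. All miR-376a*A arrays were below all others, and the miR-376a*G arrays overlapped the controls. SC5D fell with miR-376a*A by 1.19-fold, at -0.25 ± 0.0815 (SE, adjusted p = 0.044), close to the threshold, and was at 0.07 (adjusted p = 0.579) with miR-376a*G. Between the forms the difference was -0.32 ± 0.0815 (SE, adjusted p = 0.0149). The call against the control held without control replicate 3 and ended without any 1 of the other 8 arrays (adjusted p = 0.056 to 0.135). The difference between the forms ended without miR-376a*A replicates 2 or 3 or miR-376a*G replicate 1 (adjusted p = 0.0578 to 0.0626). The second SC5D probe set was too dim to be tested, with signals of 15, 8.61 and 9.69 in the control, 3.07, 3.11 and 1.23 with miR-376a*A and 11.4, 7.4 and 8.88 with miR-376a*G.

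By the brightest probe set of each gene, DHCR7 had the largest of the 3 falls that passed with miR-376a*A. Its signal was 199, 175 and 186 on control replicates 1, 2 and 3, 116, 125 and 142 with miR-376a*A and 165, 151 and 157 with miR-376a*G. The 3 groups did not overlap, with the controls highest and miR-376a*A lowest. The fall with miR-376a*A was 1.41-fold, at -0.50 ± 0.0851 (SE, adjusted p = 0.00128), and it held without any 1 array. With miR-376a*G the difference was -0.22 ± 0.0851 (SE, adjusted p = 0.083). Between the forms it was -0.28 ± 0.0851 (SE, adjusted p = 0.0372), a call that ended without miR-376a*A replicates 1 or 2, miR-376a*G replicates 1, 2 or 3 or control replicate 3 (adjusted p = 0.0518 to 0.151). The second DHCR7 probe set passed as lower with both forms, at -0.38 (adjusted p = 0.00507) and -0.30 (adjusted p = 0.0176), and the difference between the forms there was -0.09 (adjusted p = 0.511). When both probe sets were averaged, DHCR7 passed as lower with miR-376a*G too (adjusted p = 0.0212) and the forms no longer differed past the threshold (adjusted p = 0.0965). By the brightest probe sets, SC5D and DHCR7 were the 2 genes of the 10 that passed between the forms, beside 18.3% of all features.

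**Figure D2:**
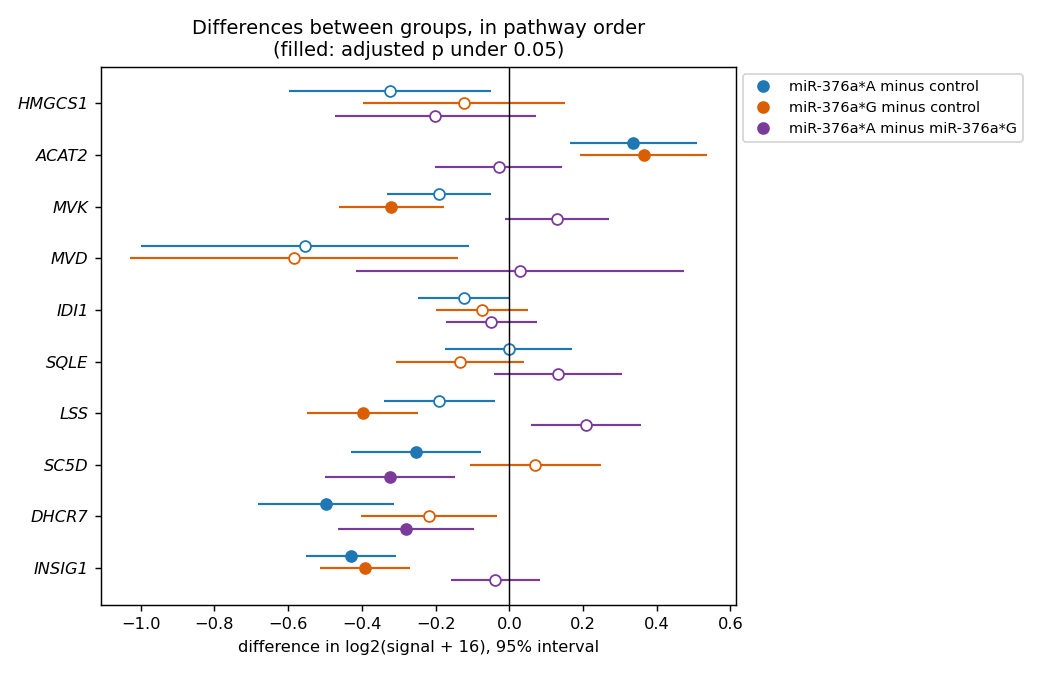
Difference in log2(signal + 16) of the 10 genes for each form against the control and for the forms against each other, in pathway order with INSIG1 last. Points are the fitted differences, lines their 95% intervals, and filled points passed at an adjusted p under 0.05. ACAT2 alone has filled points on the positive side against the control, at 0.34 and 0.36, and only SC5D and DHCR7 have filled points for the forms against each other.

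Over all tested probe sets of the 10 genes, 11 of 24 passed with miR-376a*A (3 higher, 8 lower), beside 21.3% of all probe sets on the array that were tested. With miR-376a*G 8 of 24 passed (2 higher, 6 lower), beside 25.8%, and between the forms 2 of 24 passed, both lower with miR-376a*A, beside 18.1%. The probe sets that were higher belonged to ACAT2 and IDI1. The probe sets of 1 gene share its transcripts and are not replicates. INSIG1 and DHCR7 were the genes with several tested probe sets that all passed in 1 direction with miR-376a*A, and INSIG1 alone was so with miR-376a*G.

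**Figure D3:**
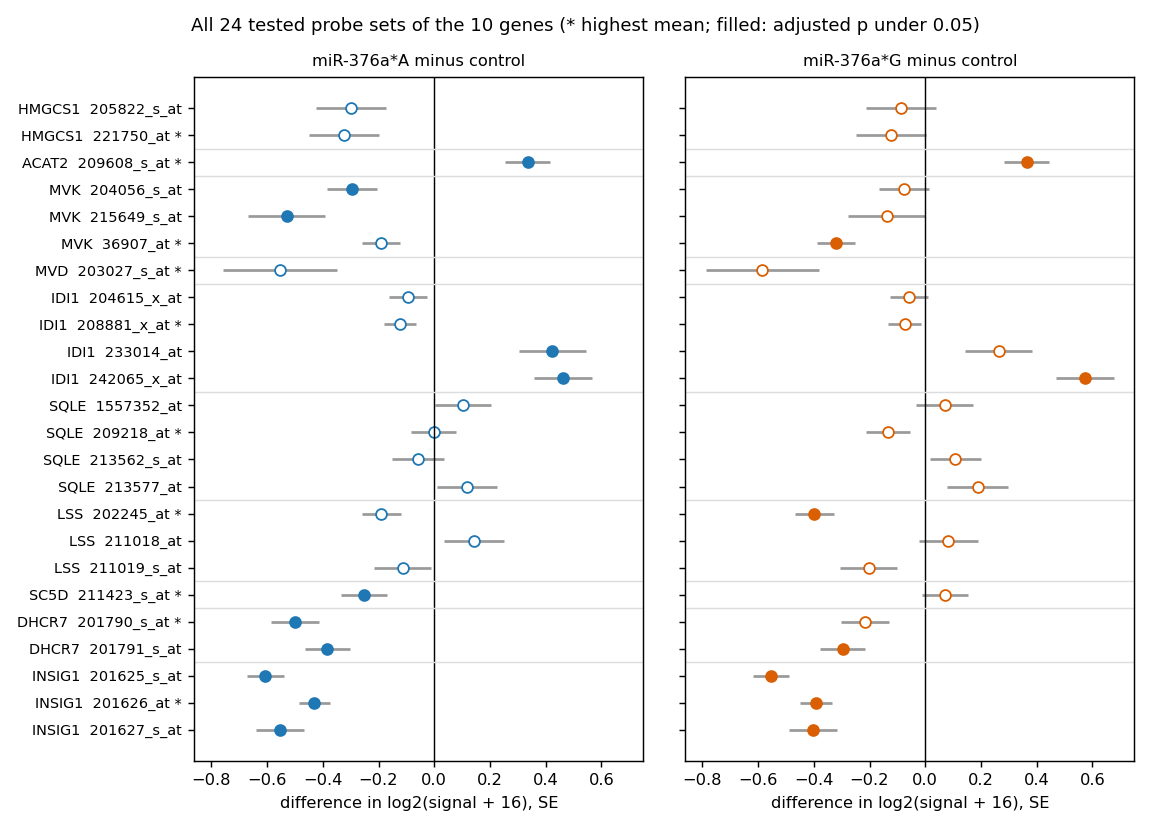
Difference in log2(signal + 16) from the control for each of the 24 tested probe sets, with miR-376a*A on the left and miR-376a*G on the right; lines are SE, filled points passed at an adjusted p under 0.05 and an asterisk marks the probe set used for the gene. The 3 probe sets of INSIG1 lie between -0.61 and -0.39 in both panels, while those of IDI1 lie on both sides of 0.

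The upstream sequences of the 4 genes whose fall against the control held without any 1 array (MVK, LSS, DHCR7 and INSIG1) are shown, because SREBP acts at such promoters together with the CCAAT-binding factor NF-Y. Each run is the 250 bases before the start of the gene in RefSeq (GRCh38.p14), 5′ to 3′ on the gene's strand, and the capitals mark CCAAT on either strand, which reads ATTGG on the strand shown when it lies on the other.
MVK chr12:109573544-109573793 (+ strand): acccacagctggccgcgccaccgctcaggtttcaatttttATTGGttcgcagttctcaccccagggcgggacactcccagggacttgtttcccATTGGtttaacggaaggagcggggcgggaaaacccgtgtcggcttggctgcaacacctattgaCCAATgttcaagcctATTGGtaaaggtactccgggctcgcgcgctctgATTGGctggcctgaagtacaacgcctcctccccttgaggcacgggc
LSS chr21:46228775-46229024 (- strand): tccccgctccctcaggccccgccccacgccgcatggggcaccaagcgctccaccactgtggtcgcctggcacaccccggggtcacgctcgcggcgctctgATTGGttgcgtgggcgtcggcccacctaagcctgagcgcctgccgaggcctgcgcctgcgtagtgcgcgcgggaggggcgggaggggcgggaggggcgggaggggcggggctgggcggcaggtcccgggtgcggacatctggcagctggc
DHCR7 chr11:71448394-71448643 (- strand): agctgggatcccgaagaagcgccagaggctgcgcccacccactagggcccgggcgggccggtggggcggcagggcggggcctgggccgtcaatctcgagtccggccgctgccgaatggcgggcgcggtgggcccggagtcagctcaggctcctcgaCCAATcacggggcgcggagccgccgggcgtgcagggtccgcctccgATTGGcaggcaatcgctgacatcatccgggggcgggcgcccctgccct
INSIG1 chr7:155297628-155297877 (+ strand): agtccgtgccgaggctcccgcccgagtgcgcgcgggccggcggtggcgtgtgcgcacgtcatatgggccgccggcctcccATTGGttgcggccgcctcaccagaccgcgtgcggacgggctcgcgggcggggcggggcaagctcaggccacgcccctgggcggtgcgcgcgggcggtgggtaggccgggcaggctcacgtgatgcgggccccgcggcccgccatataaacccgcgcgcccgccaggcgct

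The MVK window held 5 CCAAT matches, the DHCR7 window shown 2, and those of LSS and INSIG1 1 each. RefSeq starts gave 13 windows for 8 of the 10 genes. DHCR7 had 2 windows, of which 1 is shown, and the other held 0 CCAAT matches. ACAT2 and SQLE were not analysed here. CCAAT was in 10 of the 13 windows, in at least 1 window of each of the 8 genes, and in 32% of all 35116 windows of this length, and 6 of the 13 held at least 2 matches, against 9.53% of all. GGGCGG, the GC box read by Sp factors, was in 12 of the 13 windows and in 42.6% of all. TCACNCCAC, a form of the sterol regulatory element, was in 0 of the 13 and in 0.883% of all, searched on both strands like the other motifs. Windows of 1 gene may overlap, and the 2 windows of SC5D hold the same CCAAT match. The shares of all are per window, and a share per gene was not analysed here. Matches of different motifs may overlap. These are matches of letters in windows. They do not show that a factor binds, and a window without a match says nothing about the factor.

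The other genes of the pathway were taken from 6 lists with 70 genes, of which 59 were on the array under a single symbol and 56 were tested; the remaining genes were not analysed here. Of the 56, 21 passed with miR-376a*A (10 higher, 11 lower), 23 with miR-376a*G (10 higher, 13 lower) and 14 between the forms (7 higher, 7 lower with miR-376a*A). These are shares of 37.5%, 41.1% and 25%, to be read beside the 20.8%, 24.9% and 18.3% over all features. Of these 20068 features 13697 were single-symbol genes, and the rest were probe sets without a single symbol. The counts per list given below stand beside 10.8% higher and 10% lower of all features with miR-376a*A. Those shares were 11.8% and 13.1% with miR-376a*G, and 10.4% and 7.9% between the forms. Without miR-376a*A replicate 1, 2 or 3 the count with miR-376a*A was 13, 12 or 10, beside 2993, 2841 or 2851 of all features. Without miR-376a*A replicate 1 or 2 or miR-376a*G replicate 2 or 3 the count between the forms was 9. Of all features 2529, 2451, 2340 and 2476 passed there. In the main fit 4177 and 3671 features passed in these comparisons. With each array centred on its median the pathway counts were 6 higher and 12 lower with miR-376a*A, 10 higher and 11 lower with miR-376a*G and 4 higher and 10 lower between the forms. With only the compared groups in the fit they were 4 higher and 10 lower, 8 higher and 11 lower, and 8 higher and 11 lower. When only brighter probe sets were kept, by a filter at the 60th percentile, 21, 24 and 14 of 50 pathway genes passed. Of the 13483 features then tested, 4155, 4859 and 3528 passed. The part of brightness in these shares was not tested.

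**Figure D4:**
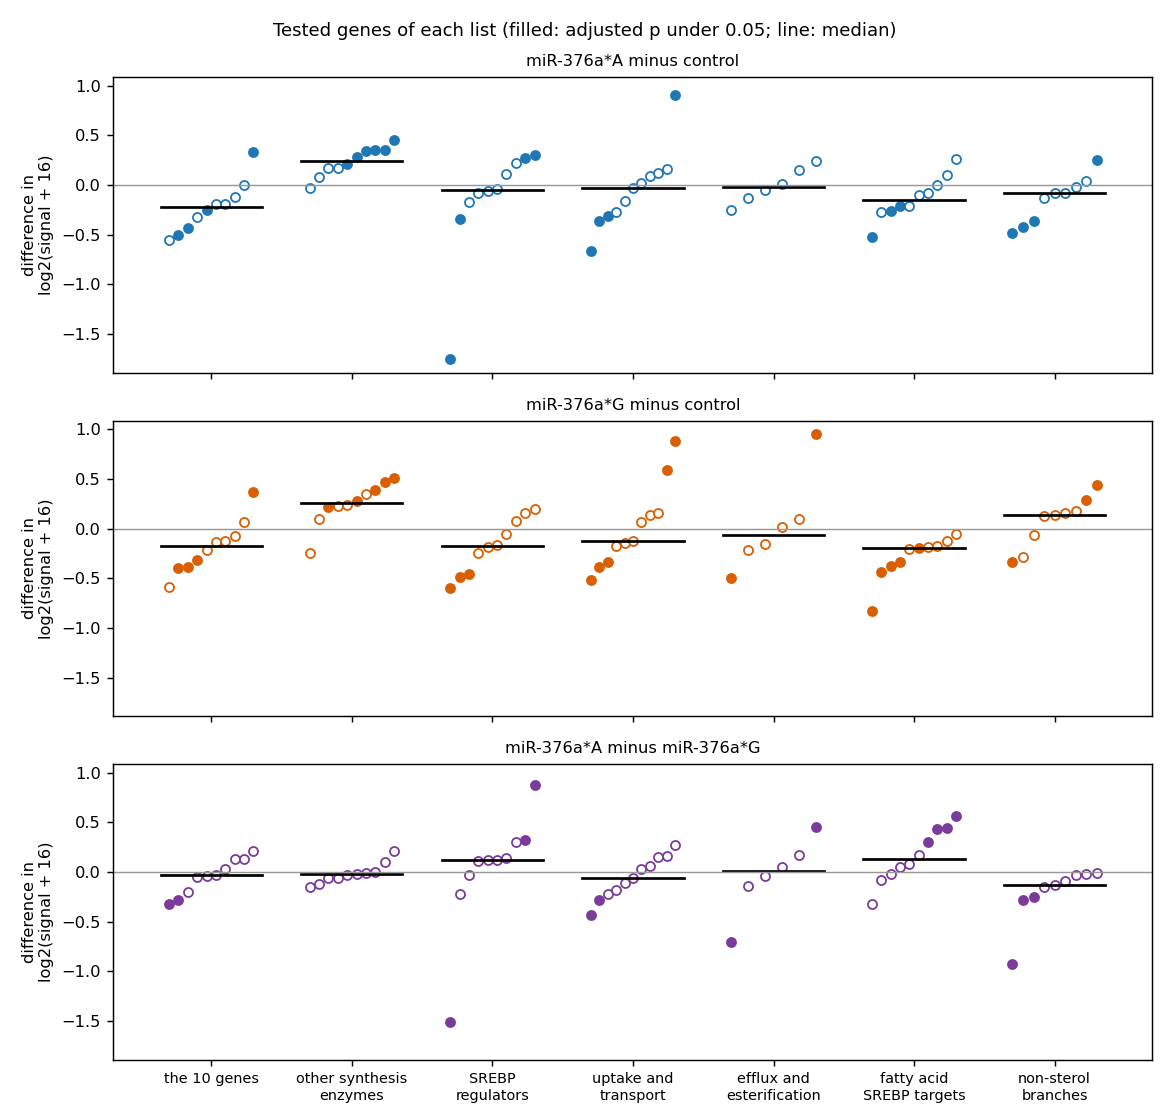
Difference in log2(signal + 16) of each tested gene of the 10 and of the 6 other lists, for miR-376a*A against the control (top), miR-376a*G against the control (middle) and the forms against each other (bottom). Points are genes in order of their difference, filled where the adjusted p was under 0.05, and the black line is the median of the list. The list labelled other synthesis enzymes has medians of 0.25 and 0.26 against the control, the 10 genes -0.22 and -0.18. The medians of these 20 genes together, not drawn, are 0.04 and 0.08.

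Of 10 other tested genes listed with cholesterol synthesis, 6 rose and 0 fell with miR-376a*A, and 5 rose and 0 fell with miR-376a*G. Their medians were 0.25 and 0.26. TM7SF2, a sterol reductase gene, lay below the control at -0.03 and -0.24, and it passed with neither form, nor did GGPS1, ERG28 and EBP. FDPS, which makes farnesyl diphosphate, rose from 406 ± 51.5 (SD, n = 3) to 518 ± 14.6 (SD, n = 3) with miR-376a*A (0.35) and to 566 ± 26.5 (SD, n = 3) with miR-376a*G (0.47). PMVK, the kinase that acts directly after MVK, rose by 0.35 and 0.51, and the sterol methyl oxidase gene MSMO1 by 0.36 and 0.38. NSDHL and HSD17B7 also rose with both forms and LBR with miR-376a*A, but each of these calls ended without 2 to 8 of the single arrays. The calls of NSDHL and HSD17B7 with miR-376a*A also ended with each array centred on its median (adjusted p = 0.057 and 0.108), and those of NSDHL with both forms when its probe sets were averaged (adjusted p = 0.125 and 0.0907). The rise with miR-376a*A ended for FDPS without miR-376a*A replicate 3 (adjusted p = 0.053) and for PMVK without miR-376a*A replicates 2 or 3 (adjusted p = 0.051 to 0.0849), and those of MSMO1 held without any 1 array. Between the forms 0 of the 10 passed, and 0 had an unadjusted p under 0.05 in limma. Over all 20068 features, 3654 had such a p between the forms on the higher side and 2628 on the lower.

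Among 10 tested regulators of SREBP, 2 rose and 2 fell with miR-376a*A, and 0 rose and 3 fell with miR-376a*G. ERLIN2 encodes an endoplasmic reticulum protein that acts with INSIG1 in the degradation of HMG-CoA reductase. Its signal was 704, 560.1 and 598 on control replicates 1, 2 and 3, 189.7, 162 and 165 with miR-376a*A and 522, 531 and 506 with miR-376a*G. ERLIN2 fell 3.38-fold with miR-376a*A (-1.75 ± 0.0883 SE, adjusted p = 4.76e-08) and differed between the forms by -1.51 ± 0.0883 (SE, adjusted p = 1.63e-07), and another of its probe sets gave -1.30 and -1.28. SCAP, the escort that INSIG1 retains, was at 213, 212 and 204 in the control, 156, 165 and 166 with miR-376a*A and 151, 153 and 141 with miR-376a*G, and it fell with both forms, at -0.34 and -0.46. MBTPS2, which makes the last of the cuts that free SREBP, was lower with miR-376a*G (-0.60 ± 0.0884 SE, adjusted p = 0.000342) and higher with miR-376a*A (0.28, adjusted p = 0.0425), and the forms differed by 0.88 ± 0.0884 (SE, adjusted p = 1.87e-05). MBTPS1, the protease of the first cut, rose with miR-376a*A (0.30, adjusted p = 0.0324). The rises of MBTPS2 and MBTPS1 both ended when control replicate 2 or 3 or any miR-376a*A array was left out, and that of MBTPS2 also when miR-376a*G replicate 2 or 3 was (highest adjusted p = 0.13 and 0.119). Both also ended with each array centred on its median (adjusted p = 0.0864 and 0.0618) and with probe sets averaged (adjusted p = 0.125 and 0.0894). SREBF1, which encodes the SREBP factor of fatty acid genes, fell with miR-376a*G (-0.49 ± 0.101 SE, adjusted p = 0.00339), and its difference between the forms (0.32, adjusted p = 0.0435) ended without miR-376a*A replicates 1, 2 or 3, miR-376a*G replicates 2 or 3 or control replicate 3 (adjusted p = 0.0512 to 0.159) and with each array centred on its median (adjusted p = 0.0925). SREBF2, the main factor of the cholesterol genes, did not pass, at -0.08 (95% interval -0.28 to 0.11) and -0.05 (95% interval -0.25 to 0.15).

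Of 11 tested genes of cholesterol uptake and transport, 1 rose and 3 fell with miR-376a*A, and 2 rose and 3 fell with miR-376a*G. LIPA, the lysosomal lipase that frees cholesterol from esters, rose from 574 ± 46.8 (SD, n = 3) to 1088 ± 23.2 (SD, n = 3) and 1068 ± 18.5 (SD, n = 3), or 1.88-fold and 1.84-fold. The lipid transfer gene OSBP (-0.67 and -0.38) and the lipoprotein receptor gene SCARB1 (-0.36 and -0.52) fell with both forms, and NPC1, which exports cholesterol from lysosomes, fell with miR-376a*A (-0.31). The SCARB1 call with miR-376a*A ended without miR-376a*A replicates 1 or 3 or control replicate 1 (adjusted p = 0.0525 to 0.0758). STARD4, a sterol carrier, rose with miR-376a*G (0.59 ± 0.1 SE, adjusted p = 0.000943) and was lower with miR-376a*A than with miR-376a*G (-0.43, adjusted p = 0.00968), as was OSBP (-0.29, adjusted p = 0.0272), a call that ended without miR-376a*A replicates 1 or 2 or miR-376a*G replicates 1 or 3 (adjusted p = 0.0867 to 0.111). When the OSBP probe sets were averaged, neither this difference (-0.15, adjusted p = 0.208) nor that of miR-376a*G from the control (-0.14, adjusted p = 0.202) passed. Of 6 tested genes of efflux and esterification, 0 passed with miR-376a*A, where 0 also had an unadjusted p under 0.05 in limma. Over all 20068 features, 3795 had such a p on the higher side with miR-376a*A and 3005 on the lower. With miR-376a*G the cholesterol exporter gene ABCA1 fell (-0.50 ± 0.0769 SE, adjusted p = 0.000476) and CH25H, which makes an oxysterol, rose (0.95 ± 0.133 SE, adjusted p = 0.000219), and both differed between the forms, at 0.45 and -0.71. The brightest probe set of SOAT1, which esterifies cholesterol, did not pass with miR-376a*A (-0.25), while its other 2 were lower, at -1.29 and -0.88.

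Of 10 tested SREBP targets, mostly of fatty acid synthesis, 0 rose and 3 fell with miR-376a*A, and 0 rose and 5 fell with miR-376a*G. Their medians were -0.15 and -0.20, and 0 had an unadjusted p under 0.05 on the higher side in limma. On that side 3795 of all 20068 features had such a p with miR-376a*A, and 3522 with miR-376a*G. The desaturase gene SCD was at 782, 674 and 686 in the control, 586, 584 and 602 with miR-376a*A and 395, 379 and 411 with miR-376a*G, falls of 1.2-fold and 1.77-fold, and it differed between the forms by 0.56 ± 0.0696 (SE, adjusted p = 0.000103). The smaller fall ended without miR-376a*A replicates 1 or 2 (adjusted p = 0.0585 to 0.0692). These values are from the brightest of 4 SCD probe sets. The other 3 did not pass, at -0.29 to -0.14 with miR-376a*A, -0.29 to -0.25 with miR-376a*G and -0.01 to 0.13 between the forms, and with all 4 averaged the difference between the forms did not pass (0.18, adjusted p = 0.0712). ACLY, which makes acetyl-CoA for both routes, fell with miR-376a*G (-0.34 ± 0.0593 SE, adjusted p = 0.0012), as did LPIN1 (-0.38, adjusted p = 0.00849), and ELOVL6 fell with miR-376a*A (-0.52, adjusted p = 0.00518). ACACA also passed as lower with miR-376a*G (-0.44, adjusted p = 0.0499), though its miR-376a*G arrays overlapped the controls. That call was lost in 13 of 20 alternatives, among them 6 that left out 1 array. TMEM97 fell with both forms, at -0.21 (adjusted p = 0.0285) and -0.19 (adjusted p = 0.0374). Its call with miR-376a*A ended without miR-376a*A replicates 1, 2 or 3 or miR-376a*G replicate 2 (adjusted p = 0.0503 to 0.111), that with miR-376a*G without 6 of the single arrays, and both when its probe sets were averaged (adjusted p = 0.186 and 0.113). Between the forms ACLY (0.44) and FADS2 (0.44) were higher with miR-376a*A, and the latter ended without miR-376a*A replicates 1, 2 or 3 or miR-376a*G replicates 1 or 2 (adjusted p = 0.059 to 0.126) and with each array centred on its median (adjusted p = 0.0692). In the branches from mevalonate to dolichol, ubiquinone and protein prenylation, 1 of 9 tested genes rose and 3 fell with miR-376a*A, and 2 rose and 1 fell with miR-376a*G. RABGGTB, of the enzyme that prenylates Rab proteins, fell with miR-376a*A (-0.48 ± 0.0719 SE, adjusted p = 0.000475), rose with miR-376a*G (0.44 ± 0.0719 SE, adjusted p = 0.000689) and differed between the forms by -0.93 ± 0.0719 (SE, adjusted p = 1.75e-06). Of the subunits of the dolichol-making transferase, DHDDS fell with both forms (-0.36 and -0.33) and NUS1 rose (0.26 and 0.29), the rise with miR-376a*A ending without miR-376a*A replicates 2 or 3 or control replicate 3 (adjusted p = 0.0559 to 0.078). With its 2 probe sets averaged DHDDS did not pass with miR-376a*A (-0.16, adjusted p = 0.086). The ubiquinone gene PDSS2 fell with miR-376a*A (-0.42), which ended without miR-376a*A replicates 1 or 3 (adjusted p = 0.0541 to 0.0814), and PDSS1 (-0.25) and PGGT1B (-0.29) were lower with miR-376a*A than with miR-376a*G, calls that each ended without 5 of the single arrays. Averaging the probe sets also ended the calls of PDSS2 (-0.14, adjusted p = 0.178) and PDSS1 (-0.07, adjusted p = 0.458).

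The deposited signals had been brought to 1 scale, with a trimmed mean of 100.01 on each array and medians between 17.9 and 20.3. Control replicates 1 and 2 scattered more around their group (SD of 0.164 and 0.145 on the log2 scale) than the other 7 arrays (0.102 to 0.114), and the median SE of a log2 difference was 0.101. The number of arrays limits the precision. The glioma markers VIM (2009 to 2611) and CD44 (1821 to 2199) were bright on all 9 arrays, while the astroglial markers GFAP (0.734 to 2.43) and S100B (0.521 to 1.67) were at the bottom of the range, as were the immune marker CD14 (0.473 to 0.986) and the epithelial marker KRT19 (0.707 to 1.62). Other members of these lists lay between, such as NES (63.9 to 105), SOX2 (14.4 to 26.1) and AQP4 (5.57 to 13.4). The immune markers ITGAM (16.6 to 27.4) and CD3E (4.6 to 22.3) and the epithelial EPCAM (12 to 20.5) were brighter than CD14 and KRT19. The neuronal marker TUBB3 (1659 to 1939) was bright and passed in no comparison. Some markers of other cell types moved with the groups. Of 4 tested neuronal markers, SNAP25 rose with miR-376a*A (684 to 757, against 293 to 314 in the control) and with miR-376a*G (357 to 440.2), and SYT1 fell with miR-376a*G. The summed signal of the 5 neuronal markers, most of it from TUBB3, was 2123 to 2355 in the control, 2597 to 2725 with miR-376a*A and 2277 to 2347 with miR-376a*G. Of the endothelial markers PECAM1 rose with miR-376a*A (78.9 to 87.3, against 41.5 to 47.6), and the 4 together summed to 52.2 to 61.2, 99.1 to 109 and 59 to 64.9. Of 6 tested glioma and astroglial markers SLC1A3 fell with miR-376a*G, and of 2 tested immune markers the dim CD3E did. The part of these markers in the differences of the cholesterol genes was not tested.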

How the data were processed

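The deposited values are linear signal intensities, 1 per probe set and array. Per the submitters' processing notes the software was GCOS 1.4.0.036, but what it did, how a signal was computed and the target of the scaling are not given here. The trimmed mean (2%) of the deposited intensity was 100.009 to 100.011 on each array, which would hide a change common to all transcripts. Per the labels' protocols, RNA was labelled with biotin-ULS. The labels call the samples biological replicates and name no separate cultures or batches, so p-values measure the spread between these samples.

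The table has 54675 probe sets. The 62 array controls were dropped, and 41091 of the rest had 1 symbol, 1801 several and 11721 none. Signals were analysed as log2(signal + 16). The 32768 probe sets whose mean reached the 40th percentile (4.77, or a signal of 11.3) were kept. A gene was taken from its brightest probe set on average, and with the unnamed probe sets this left 20068 features. The test was limma 3.58.1 (R 4.3.3; lmFit, contrasts, trended eBayes; two-sided; 6 residual and 6.48 prior degrees of freedom) on all 9 arrays. Probe sets of the members were also tested among all 32768. Figures were made with Python 3.11.15 and matplotlib 3.10.9. Promoter and miRNA sequences are those of RefSeq for GRCh38.p14.

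All 10 members were named with each of their probe sets. From the other lists any called gene could be named, with at least the 3 of smallest p per list and comparison. The members and the lists were chosen with earlier results of these data known, so they are no independent evidence of a direction. Alternatives changed the scaling, the filter, the offset, the variance model, the choice of probe set and which arrays were fitted, added a replicate block, or left out each array in turn.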

Additional observations from a re-analysis of the deposited data

Results flagged for a closer look

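The effects of the 2 forms differed in a direct test for 2 of the 10 genes, a share of 20%, near the 18.3% of all features that passed there. SC5D was lower with miR-376a*A than with miR-376a*G by a log2 difference of -0.32 ± 0.0815 (SE, adjusted p = 0.0149), and DHCR7 by -0.28 ± 0.0851 (SE, adjusted p = 0.0372). All 3 miR-376a*A arrays were below all 3 miR-376a*G arrays for both genes. The forms also did not overlap for HMGCS1 (-0.20) and IDI1 (-0.05), lower with miR-376a*A. Nor did they for MVK (0.13), SQLE (0.13) and LSS (0.21), which were higher with miR-376a*A. None of these genes passed between the forms. How often they did not overlap over all features was not analysed here. The calls of SC5D and DHCR7 both ended without some single arrays, and for DHCR7 the second probe set gave -0.09 between the forms. Groups of 3 arrays are too small for the test of single outlying arrays.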

How the results depend on the processing

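The 30 differences of the 10 genes were recomputed under 627 alternatives in all. Their direction and side of the threshold were kept in 578, the call was lost in 26 and gained in 22, and 1 turned around: with the mean of its probe sets IDI1 was higher with miR-376a*G (0.18, adjusted p = 0.0415). Of the 168 differences of the other pathway genes, 3342 alternatives kept 3134, lost 166, gained 42 and turned 0. Differences that did not pass are not counted here when their sign turned without a call, which happened for 7 of 20 of the 10 genes (largest size 0.13) and 38 of 110 of the others (largest size 0.29). The count of the 10 genes that differed between the forms, 2, was 1 without a filter, with the mean of probe sets and with the replicate block. Over all features 3024 of 33297, 3799 of 20068 and 3325 of 20068 passed there. With each array centred on its median, 6 of the 10 genes passed with miR-376a*A (1 higher, 5 lower), against 4 (1 and 3). Leaving out single arrays gave 3 to 5 of the 10 genes with miR-376a*A, 4 to 5 with miR-376a*G and 0 to 3 between the forms. Of the other pathway genes it gave 10 to 21, 18 to 28 and 9 to 19. Over all features, 2841 to 4686, 3477 to 5414 and 2340 to 5233 passed in these fits, of 20053 to 20095 tested. The SC5D call with miR-376a*A also ended with quantile normalization, without a filter, without a trend in eBayes and with only the 2 groups in the fit. MVD was not tested with a filter at the 60th percentile. There 5 of 9 genes passed with miR-376a*A, 4 with miR-376a*G and 3 between the forms, beside 4155, 4859 and 3528 of 13483 features. Arrays with the same replicate number did not deviate together (r of -0.11 to 0.07 over 9 pairs, 0 above 0.1), so the numbers were not taken as pairs. With the number as a replicate block the counts were 4, 5 and 1 for the 10 genes and 18, 22 and 13 for the others. Beside them 3840, 4714 and 3325 of all 20068 features passed. Centring each array on its median gave 1659 higher and 2353 lower features with miR-376a*A (2164 and 2013 without it) and 1509 and 2217 between the forms (2086 and 1585 without it). With only the compared groups in the fit, 3196, 4001 and 5448 features passed, against 4177, 4993 and 3671. The causes of these changes were not tested. Dim probe sets, such as that of MVD, have signals near the filter and the widest errors.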
